A study of Mus musculus with 15 samples.

Results

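The 31 genes described here carry glucose into the cell, break it down to pyruvate and lactate and move lactate across the membrane. They also govern whether pyruvate is oxidised in the mitochondrion. The members are a list of names of carriers, enzymes and kinases, with no measured value in the rule, and each of the 31 names was found among the 37991 genes of the deposited count table. All 31 passed the filter on low counts and stand among the 17999 genes tested. RNA was sequenced in bulk from 15 libraries in 5 groups of 3, which follow mouse embryonic fibroblasts (MEFs) through cardiac reprogramming. All groups are labelled wild type, on a background that mixes C57BL/6 and 129J/SvE. The starting MEFs, kept in MEF medium, were secondary fibroblasts at passage 3, and cells of that kind are known to hold reprogramming transgenes that a drug switches on. Day 9 cultures are those MEFs after 6 days of reprogramming medium, then 2 of transdifferentiation medium and 1 of ieCPC basal medium supplemented with BACS. Induced expandable cardiovascular progenitor cells (ieCPCs), sorted at day 13 and grown on in the same basal medium and BACS, were sampled at passage 3 (P3) and at passage 12 (P12). CM derivatives are ieCPCs left for 25 days in serum-free differentiation medium, and the labels used here do not give the passage of the ieCPCs they came from. The labels do not say that the 3 replicates of a group were separate cultures, so p-values measure the spread between these libraries, which may be technical.

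Glycolysis splits 1 glucose into a pair of pyruvate molecules and yields ATP without oxygen. Most of its steps are run by small enzyme families whose members (isozymes) catalyse the same reaction but differ in tissue: Eno1, Aldoa, Pgam1 and Ldha are the forms found in most cells, Eno3 and Pgam2 are the muscle forms, and Ldhb is the lactate dehydrogenase subunit that prevails in heart. Proliferating cells are known for high glycolysis, and the transcription factor HIF-1, active when oxygen is low, and Myc are known activators of many of its genes. The adult heart takes most of its energy from fatty acids, and there the pyruvate dehydrogenase kinases, Pdk4 above all, hold back the oxidation of pyruvate.

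Library totals ran from 21823056 to 29996464 counts. Ribosomal RNA of the mitochondrion took 44.3% to 50.1% of counts in CM derivatives, and at most 25.2% in the other groups, and the factors of TMM scaling were 0.545 to 0.643 in CM derivatives and 0.973 to 1.22 elsewhere. CM replicate 3 stood apart from its group: its counts gave a chi-square per degree of freedom of 25.7 when set beside CM replicate 1 and 40.8 beside CM replicate 2, while those 2 libraries gave 10.5. Cardiomyocyte markers (Tnnt2, Myh6, Ttn and others, 12 in all) summed to 19430, 13020 and 26470 CPM in the 3 CM libraries and to at most 164 CPM in any other library, with all 12 genes at 1 CPM or more in CM derivatives. The 10 fibroblast markers summed to 21480 to 24820 CPM in CM derivatives and to 16370 to 20510 CPM across the other groups, so the CM label covers cultures that also carry fibroblast transcripts. Cardiac progenitor markers (10 genes) summed to 571.6 to 844 CPM in ieCPCs and CM derivatives and to at most 213.5 CPM in MEFs and at day 9. Pluripotent and epithelial markers (7 genes) summed to 453.5 to 492.6 CPM at day 9 and at most 40.1 CPM elsewhere. Smooth muscle markers lay between 1056 and 3014 CPM, endothelial markers between 43.3 and 80.8 CPM and erythroid markers between 3.476 and 12.06 CPM in all libraries. Cell cycle markers (9 genes) summed to 358, 386 and 630 CPM in CM derivatives and to between 897 and 1331 CPM in every other library. Levels below are counts-per-million after TMM scaling (CPM), given by library or as mean ± SD over 3 libraries, and a gene is called changed at a Benjamini-Hochberg adjusted p under 0.05 in edgeR's quasi-likelihood test. In bulk RNA, fewer cells of a type and less RNA per cell cannot be told apart.

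The 31 transcripts together made up 4745 ± 96.8 CPM in MEFs, 4124 ± 132 CPM at day 9, 1618 ± 48.1 CPM in P3 ieCPCs, 1961 ± 52.7 CPM in P12 ieCPCs and 2923 ± 250.4 CPM in CM derivatives (SD, n = 3 each). The progenitors were lowest, and no library of P3 ieCPCs (1568 to 1663 CPM) reached those of any other group. Gapdh alone gave 28.6% to 35.2% of each group's sum. The order of the groups depends on the scaling: over library totals the sum was 4940 ± 63.2 CPM at day 9 against 4683 ± 153.8 CPM in MEFs, and 1763 ± 118.6 CPM in CM derivatives against 1951 ± 52.3 CPM in P3 ieCPCs. With the mitochondrial genome's genes left out it was 6499 ± 111.7 CPM at day 9 against 6442 ± 136.8 CPM in MEFs, and 3928 ± 347.7 CPM in CM derivatives against 2464 ± 63.4 CPM in P3 ieCPCs. By group mean, 13 members were highest in CM derivatives, 11 in MEFs, 5 at day 9, 2 in P12 ieCPCs and 0 in P3 ieCPCs, and 11 were lowest in P3 ieCPCs.

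**Figure D1:**
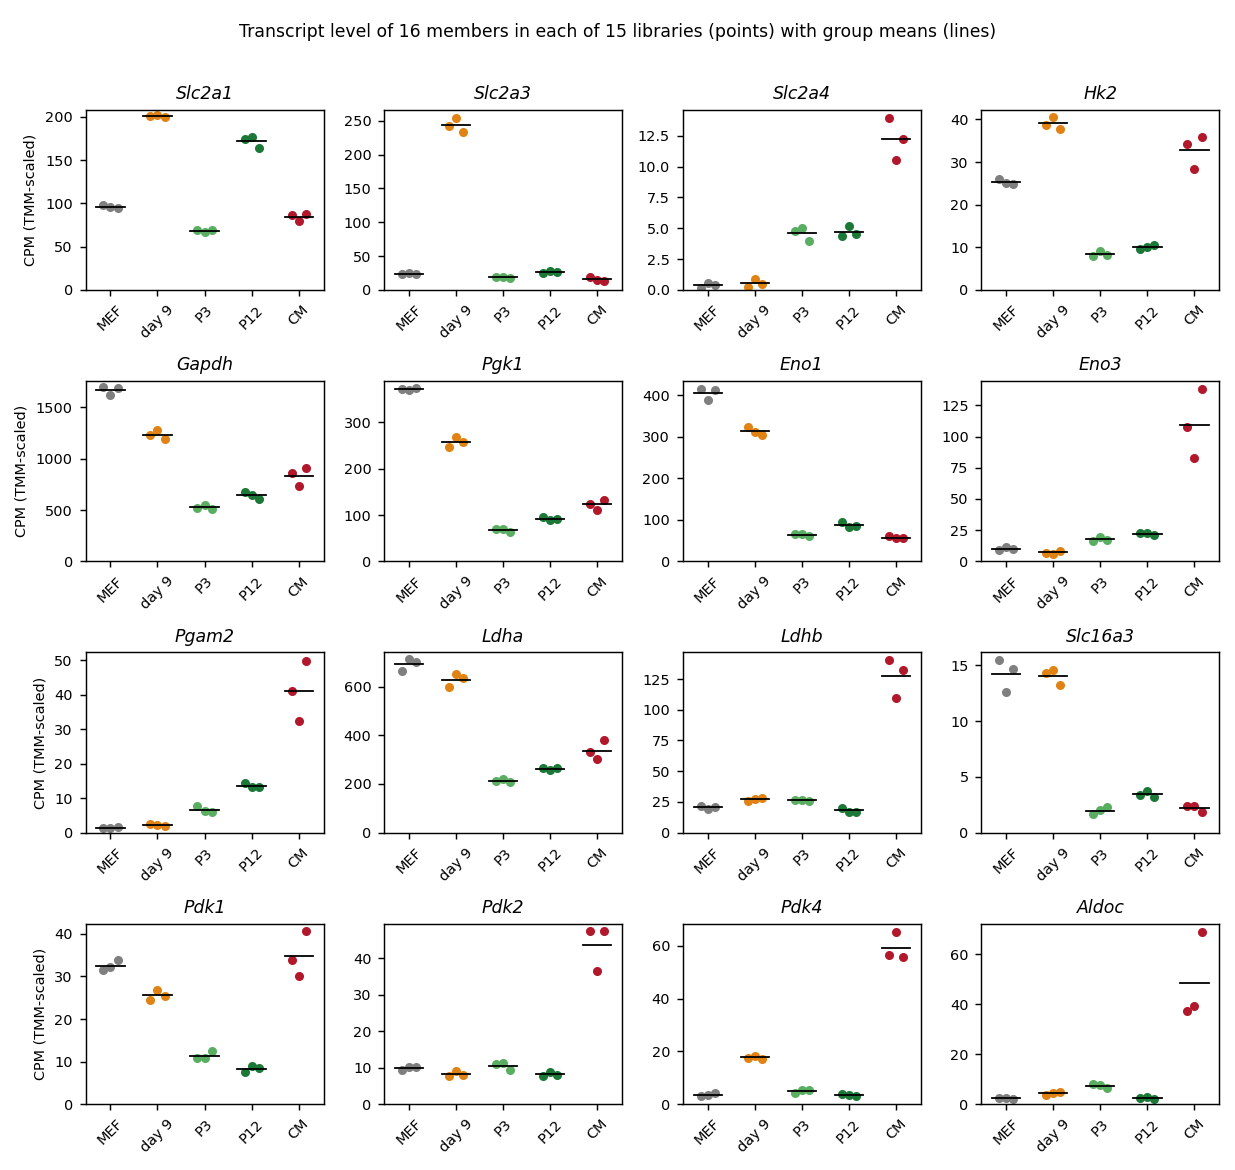
Transcript level in CPM after TMM scaling of 16 of the 31 genes, 1 panel per gene; each point is a library, each line a group mean, and the groups run from MEFs through day 9, P3 and P12 ieCPCs to CM derivatives. Slc2a3 stands out at day 9 (233 to 254 CPM), Eno1 and Pgk1 are highest in MEFs, and Eno3, Pgam2, Ldhb, Pdk2, Pdk4 and Aldoc are highest in all 3 CM libraries.

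At day 9, 8 members were higher than in MEFs and 15 were lower, beside 57.2% of all tested genes called, 29.7% higher and 27.4% lower. Past 2-fold, rises outnumbered falls among the members and among all genes alike. Of the 31 members, 4 rose more than 2-fold, close to the share of all genes (13.9%), and 0 fell by as much (5.28% of all genes). Those 4 were the glucose carriers Slc2a3 and Slc2a1, the lactate carrier Slc16a1 and the kinase Pdk4. The median log2 fold change was -0.21 over the 31 members and 0.05 over all tested genes.

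In P3 ieCPCs the pathway was lower than at day 9 along most of its length. There, 18 members fell and 9 rose, beside 32.3% of all genes lower and 28.4% higher, and 17 of the falls exceeded 2-fold (13.3% of all genes). Among the rises, 3 exceeded 2-fold (9.96% of all genes), namely Slc2a4, Pgam2 and Eno3. The median log2 fold change was -1.07 over the members and -0.03 over all genes. Set against MEFs, P3 ieCPCs had 19 members lower and 9 higher (32.5% and 33.3% of all genes), with 13 lower and 3 higher by more than 2-fold (11.2% and 16.9% of all genes) and a member median of -0.49.

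Between passages fewer members passed the test. In P12 ieCPCs 12 members were higher than in P3 ieCPCs and 7 were lower, beside 36.8% of all genes called, 17.3% higher and 19.5% lower. Of these, 2 rose more than 2-fold, Slc2a1 and Pgam2, and 1 fell more than 2-fold, Aldoc, compared with 5.66% and 4.98% of all genes. Leaving out P3 replicate 3 or P12 replicate 1 took the 2 to 1. The median log2 fold change was 0.12 over the members and -0.00 over all genes.

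Most members were higher in CM derivatives than in the progenitors. In CM derivatives 23 members were higher than in P3 ieCPCs and 4 were lower, beside 63.1% of all genes called, 31.9% higher and 31.2% lower, and 14 rose more than 2-fold (15.9% of all genes) while 0 fell by as much (9.69%). The member median was 0.91 and the median of all genes -0.01. Without CM replicate 3 the counts were 22 higher, 3 lower and 14 higher by more than 2-fold; the 4 lower fell to 2 without P3 replicate 1. Against P12 ieCPCs, CM derivatives had 23 members higher and 7 lower (31.3% and 30.8% of all genes), 16 and 1 of them by more than 2-fold (15.5% and 11% of all genes). That 1 was Slc2a1. Leaving out P12 replicate 2, CM replicate 1 or CM replicate 3 put 2 members past the 2-fold line and leaving out CM replicate 2 put 0 past it. Against MEFs, the split was 14 higher and 15 lower (70.6% of all genes were called, 35.9% higher and 34.7% lower), with 10 of the rises above 2-fold (20.9% of all genes) and 8 of the falls above 2-fold (2169 of the 17999 genes). All these comparisons share libraries, so their counts are not independent of each other. Had the libraries been scaled to their totals, every log2 fold change of CM derivatives would lie lower, by 0.998 against P3 ieCPCs, 0.941 against P12 ieCPCs and 0.709 against MEFs. That shift turns the sign of 9 of the 27 members called against P3 ieCPCs (Slc2a1, Gpi1, Pfkm, Pfkfb3, Tpi1, Gapdh, Pgk1, Eno2 and Ldha), of 7 of 30 against P12 ieCPCs and of 3 of 29 against MEFs, whereas the rises of Pdk4, Eno3, Pgam2, Ldhb and Aldoc exceed it. For day 9 and P3 ieCPCs against MEFs the shift is 0.281 and 0.289 upward, and 1 called member turns sign in each, Pdk2 and Pdk3.

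**Figure D2:**
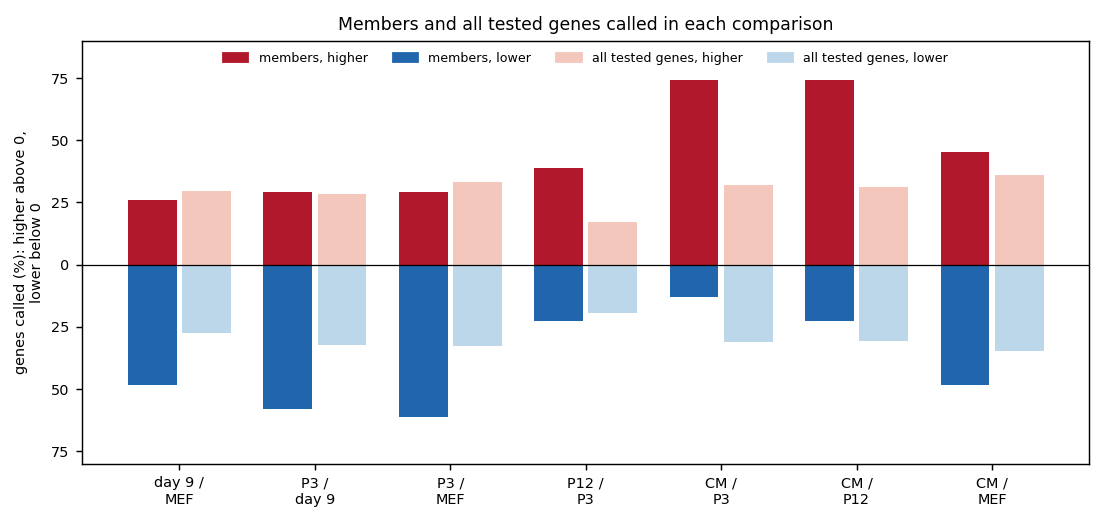
Share of genes called higher (above 0) and lower (below 0) in each of 7 comparisons, named with the later stage over the earlier; dark bars show the 31 members and pale bars all 17999 tested genes. Members called higher make up 74.2% in CM derivatives against P3 ieCPCs, beside 31.9% of all genes; members called lower make up 58.1% in P3 ieCPCs against day 9 and 61.3% in P3 ieCPCs against MEFs, beside 32.3% and 32.5% of all genes.

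**Figure D3:**
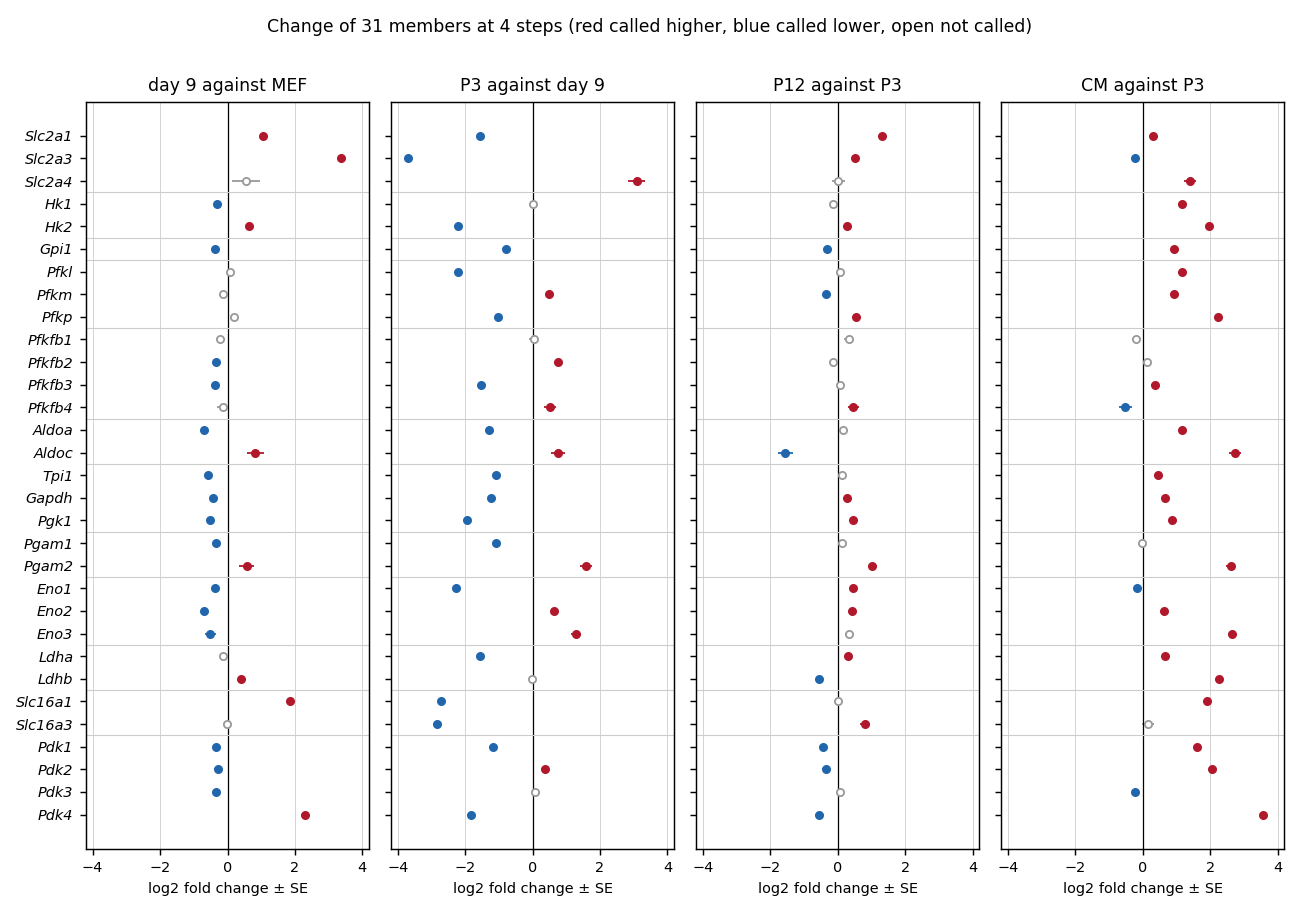
Log2 fold change with its standard error for each of the 31 genes at 4 steps, grouped by enzyme or carrier family; red points are called higher, blue points called lower and open points not called. The largest change at day 9 is Slc2a3 (3.36), the P3 panel lies mostly to the left of 0, the P12 panel lies nearer 0 apart from Aldoc, Slc2a1 and Pgam2, and Pdk4 (3.58) leads the CM panel.

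Glucose enters through facilitative carriers of the Slc2a family. Slc2a1 (GLUT1) is the carrier of most growing cells, Slc2a3 (GLUT3) is a high-affinity form of neurons and early embryos, and Slc2a4 (GLUT4) is the insulin-regulated form of muscle, heart and fat. Each had its own course. Slc2a3 (chromosome 6, 122677827 to 122751658 on mm9) measured 23.5, 24.4 and 23.0 CPM in MEFs and 243, 254 and 233 CPM at day 9, before 18.7, 19.2 and 18.3 CPM in P3 ieCPCs. It measured 25.2, 27.5 and 27.0 CPM in P12 ieCPCs and 18.4, 15.4 and 13.6 CPM in CM derivatives. Only the day 9 libraries were high, far outside the range of the others. The log2 fold change was 3.36 ± 0.07 (SE) at day 9 against MEFs (edgeR, adjusted p = 2.09e-20) and -3.70 ± 0.07 in P3 ieCPCs against day 9 (edgeR, adjusted p = 1.79e-21). The call against P3 ieCPCs in CM derivatives, a log2 fold change of -0.24 with overlapping libraries, was lost without CM replicate 3.

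Slc2a1 (chromosome 4, 118781316 to 118809935) differed at each step. Its level was 97.6, 95.6 and 95.1 CPM in MEFs, 200.5, 201.5 and 200.1 CPM at day 9, 69.2, 66.9 and 69.2 CPM in P3 ieCPCs, 175, 176 and 164 CPM in P12 ieCPCs and 87.1, 79.1 and 87.4 CPM in CM derivatives. No group overlapped a neighbouring stage. Fold changes were 2.09-fold higher at day 9 than in MEFs, 2.93-fold lower in P3 ieCPCs than at day 9, and 2.51-fold higher in P12 than in P3 ieCPCs (edgeR, adjusted p = 2.03e-15 for the last). Slc2a4 was the one carrier whose level climbed late. It had 0.154, 0.561 and 0.386 CPM in MEFs and 0.266, 0.872 and 0.513 CPM at day 9, that is 4 to 23 counts a library, then 4.77, 5.04 and 3.99 CPM in P3 ieCPCs. P12 ieCPCs had 4.33, 5.16 and 4.52 CPM and CM derivatives 13.92, 10.49 and 12.23 CPM. Slc2a4 thus rose 8.47-fold in P3 ieCPCs over day 9 (edgeR, adjusted p = 6.07e-10) and 2.65-fold in CM derivatives over P3 ieCPCs (edgeR, adjusted p = 3.91e-07), while its difference between day 9 and MEFs (0.56 ± 0.42, log2) and that between passages (0.02 ± 0.19) were not called. Per kilobase of gene model, Slc2a1 had the largest share of the 3 carriers' counts in all groups. It had 82.1% ± 1.49 in CM derivatives against 11.9% for Slc2a4, and 67.6% ± 0.926 at day 9 against 32.3% for Slc2a3. Undivided by length the order at day 9 turned, with 54.7% for Slc2a3 and 45.15% for Slc2a1. Adipocytes also express Slc2a4, and their markers summed to 13.5 to 17.7 CPM in CM derivatives and at most 3.57 CPM elsewhere, 12.7 ± 1.63 CPM of it Fabp4, and Adipoq was at 1.02 ± 0.605 CPM in CM derivatives; their part in the Slc2a4 rise was not tested.

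Hexokinases trap glucose as its phosphate. Hk1 is the housekeeping form and Hk2 the inducible form of insulin-responsive tissue and of growing cells. Hk2 (chromosome 6, 82675019 to 82724448) had 25.9, 25.1 and 25.0 CPM in MEFs, 38.7, 40.7 and 37.8 CPM at day 9, 7.98, 9.14 and 8.20 CPM in P3 ieCPCs, 9.66, 10.2 and 10.6 CPM in P12 ieCPCs, and 34.3, 28.3 and 35.8 CPM in CM derivatives. Both ieCPC groups were low and the other 3 high, with no overlap. Hk2 fell 4.62-fold in P3 ieCPCs relative to day 9 (edgeR, adjusted p = 3.26e-16) and rose 3.88-fold in CM derivatives relative to P3 ieCPCs (edgeR, adjusted p = 4.75e-15). Its 1.20-fold rise between P3 and P12 was lost without P3 replicate 1 or 3 or without P12 replicate 2 or 3. Hk1 varied less: 28.3 ± 1.40 CPM in MEFs, 22.6 ± 0.44 at day 9, 22.6 ± 1.32 in P3 ieCPCs, 20.4 ± 1.52 in P12 ieCPCs and 50.5 ± 3.57 in CM derivatives, where it rose 2.23-fold over P3 ieCPCs. Hk2 therefore made up 34.8% of hexokinase counts per kilobase in P3 ieCPCs, against 71.2% at day 9 (27.2% and 63.3% undivided by length). Gpi1, which turns glucose 6-phosphate into fructose 6-phosphate, fell at each of the first 3 steps, to 118 ± 3.69 CPM at day 9 against 152 ± 5.93 CPM in MEFs, then to 68.9 ± 0.952 CPM in P3 and 55.5 ± 2.24 CPM in P12 ieCPCs, and measured 131 ± 12.7 CPM in CM derivatives.

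Phosphofructokinase commits sugar to glycolysis, and its subunits are named for liver (Pfkl), muscle (Pfkm) and platelet (Pfkp). Pfkl measured 47.8 ± 2.73 CPM in MEFs, 50.5 ± 0.303 CPM at day 9, 10.8 ± 0.547 CPM in P3 ieCPCs, 11.4 ± 0.871 CPM in P12 ieCPCs and 24.0 ± 0.759 CPM in CM derivatives. It fell 4.67-fold in P3 ieCPCs relative to day 9 (edgeR, adjusted p = 8.46e-18). Pfkm rose at that step, 1.39-fold, and in CM derivatives it was at 37.2, 32.1 and 38.8 CPM, against 20.3, 18.2 and 18.8 CPM in P3 ieCPCs, a rise that turns into a fall under library-total scaling. Pfkp had 106, 86.8 and 119 CPM in CM derivatives, against 21.1, 23.01 and 21.95 CPM in P3 ieCPCs, a 4.72-fold rise (edgeR, adjusted p = 2.12e-16). Its exons share 372 bases, 4.0% of its length, with Pitrm1 on the other strand, and whether counting used strand is not given in the sources used here. Per kilobase, Pfkl gave 54.1% of the family's counts in MEFs, Pfkm 56.6% in P3 ieCPCs, and in CM derivatives Pfkm and Pfkp stood at 41.7% ± 0.476 and 38.9%. Undivided by length Pfkp led in both later groups, with 63.2% against 22.01% for Pfkm in CM derivatives and 42.4% against 36.8% in P3 ieCPCs.

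The 4 Pfkfb genes encode bifunctional enzymes that make and break fructose 2,6-bisphosphate, the main activator of phosphofructokinase. Pfkfb3, the form with the strongest kinase side, was the one with a large fall. It had 28.8, 26.7 and 29.1 CPM in MEFs, 23.2, 20.3 and 21.9 CPM at day 9, 7.48, 7.18 and 8.24 CPM in P3 ieCPCs, 8.21, 8.90 and 7.03 CPM in P12 ieCPCs and 8.44, 9.44 and 11.6 CPM in CM derivatives. In P3 ieCPCs this was 2.86-fold lower than at day 9 (edgeR, adjusted p = 1.07e-11), and CM derivatives remained 2.88-fold below MEFs (edgeR, adjusted p = 8.31e-12). The small rise of Pfkfb3 in CM derivatives over P3 ieCPCs, 0.36 on the log2 scale, was lost without CM replicate 3. Pfkfb2, the heart form, instead rose 1.68-fold in P3 ieCPCs to 48.6 ± 1.46 CPM, against 28.9 ± 1.33 CPM at day 9, and measured 53.5 ± 5.22 CPM in CM derivatives. Pfkfb1 and Pfkfb4 were low throughout, at 4.15 to 5.93 and 2.65 to 5.28 CPM by group mean. Pfkfb1 shares 123 exon bases, 3.1% of its length, with Apex2 on the other strand, which had 8492 counts over the 15 libraries compared with 1921 for Pfkfb1, so its levels are uncertain. Pfkfb4 was called higher in P3 ieCPCs than in MEFs (edgeR, adjusted p = 0.0457), but not without any 1 of the 3 MEF libraries or without P3 replicate 1 or 3.

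Aldolase cleaves the 6-carbon sugar; Aldoa is the muscle and general form and Aldoc the form of brain. Aldoa fell to 249 ± 16.4 CPM at day 9 against 402 ± 18.5 CPM in MEFs and to 101 ± 4.31 CPM in P3 ieCPCs, and it was at 262, 215 and 206 CPM in CM derivatives, 2.25-fold above P3 ieCPCs (edgeR, adjusted p = 1.99e-12). Aldoc (chromosome 11, 78136470 to 78141283) was minor until differentiation. It had 2.57, 2.52 and 2.21 CPM in MEFs, 3.73, 4.36 and 4.89 CPM at day 9, 7.87, 7.45 and 6.40 CPM in P3 ieCPCs, 2.55, 2.89 and 1.92 CPM in P12 ieCPCs and 37.3, 39.4 and 68.9 CPM in CM derivatives. CM replicate 3 was far above the other two, and even the lowest CM library exceeded all others. Aldoc rose 6.68-fold in CM derivatives over P3 ieCPCs, 2.74 ± 0.17 on the log2 scale (edgeR, adjusted p = 2.74e-12) and 2.40 without CM replicate 3. It had fallen 2.94-fold in P12 relative to P3 ieCPCs, the largest fall of any member at that step. Neuronal markers summed to 10.7 to 11.2 CPM in CM derivatives and to 31.2 to 181 CPM in the other groups, and the part of neuronal cells in the Aldoc changes was not tested.

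The steps that follow have a single main gene each: Tpi1 interconverts the triose phosphates, Gapdh oxidises one of them and Pgk1 makes the first ATP. At day 9 Gapdh fell to 1233, 1277 and 1193 CPM, where MEFs had 1698, 1623 and 1691 CPM, and to 516, 550 and 513 CPM in P3 ieCPCs. It stood at 678, 642 and 607 CPM in P12 ieCPCs and 865, 735 and 907 CPM in CM derivatives. This gene, often used as a constant reference, thus differed 3.18-fold between P3 ieCPCs and MEFs (edgeR, adjusted p = 6.59e-16). Pgk1 (chromosome X, 103382439 to 103399038) had 248, 269 and 259 CPM at day 9, where MEFs had 372, 370.1 and 374 CPM, and 69.7, 70.4 and 63.2 CPM in P3 ieCPCs, a 5.49-fold fall from the MEF level (edgeR, adjusted p = 1.83e-19). Tpi1 fell 3.16-fold over the same pair of groups, to 44.8 ± 1.71 CPM against 142 ± 11.6 CPM. In CM derivatives all 3 were called higher than in P3 ieCPCs, by 1.35-fold for Tpi1, 1.59-fold for Gapdh and 1.81-fold for Pgk1, and all 3 would be lower under library-total scaling.

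Phosphoglycerate mutase and enolase run the steps before pyruvate kinase. Pgam1, the general mutase, fell to 299 ± 31.6 CPM at day 9 against 378 ± 17.3 CPM in MEFs and to 139 ± 10.1 CPM in P3 ieCPCs, then measured 152 ± 5.98 CPM in P12 ieCPCs and 136 ± 0.63 CPM in CM derivatives; its difference between CM derivatives and P3 ieCPCs was -0.03 ± 0.07 (log2). The muscle form Pgam2 (chromosome 11, 5701643 to 5703736) climbed instead. It had 1.42, 1.40 and 1.65 CPM in MEFs, 2.66, 2.16 and 1.85 CPM at day 9, 7.69, 6.42 and 5.97 CPM in P3 ieCPCs, 14.5, 13.2 and 13.3 CPM in P12 ieCPCs, and 41.1, 32.3 and 49.9 CPM in CM derivatives. No 2 groups overlapped. The rises were 3.00-fold in P3 ieCPCs over day 9 (edgeR, adjusted p = 3.51e-08), 2.04-fold in P12 over P3 ieCPCs (edgeR, adjusted p = 2.32e-06) and 6.13-fold in CM derivatives over P3 ieCPCs (edgeR, adjusted p = 4.92e-14). The 1.49-fold rise at day 9 over MEFs was lost without MEF replicate 1 or 2 or without day 9 replicate 1 or 2. Per kilobase Pgam2 made up 39.4% of the mutase counts in CM derivatives (39.5%, 34.1% and 44.4% by library) against 0.852% in MEFs, and 23.0% against 0.393% when counts are not divided by length.

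Eno1, the general enolase (chromosome 4, 149610830 to 149622988), was among the most abundant members in MEFs, at 416, 389 and 412 CPM. It measured 324, 312 and 305 CPM at day 9, 66.7, 64.8 and 61.3 CPM in P3 ieCPCs, 94.8, 83.8 and 85.3 CPM in P12 ieCPCs and 59.8, 56.3 and 55.4 CPM in CM derivatives. The 2 earliest groups were high and the 3 later ones low, without overlap between them. Eno1 fell 4.88-fold in P3 ieCPCs relative to day 9 (edgeR, adjusted p = 2.36e-19), and the log2 fold change of CM derivatives against MEFs was -2.83 ± 0.06 (edgeR, adjusted p = 5.52e-21), the largest fall of any member there. Its small fall in CM derivatives relative to P3 ieCPCs (-0.17) was lost without P3 replicate 1 or 2. The muscle form Eno3 (chromosome 11, 70470704 to 70476015) had 9.09, 11.3 and 9.97 CPM in MEFs, 6.93, 6.18 and 8.20 CPM at day 9, 16.5, 19.2 and 16.9 CPM in P3 ieCPCs, 22.6, 22.7 and 21.1 CPM in P12 ieCPCs, and 107.8, 83.02 and 137.9 CPM in CM derivatives. The CM libraries lay above all others, and the part of cardiomyocytes in the rise was not tested. In P3 ieCPCs Eno3 rose 2.46-fold over day 9 (edgeR, adjusted p = 8.85e-08), and in CM derivatives it rose 6.24-fold over P3 ieCPCs (edgeR, adjusted p = 1.99e-14; 2.64 ± 0.13 on the log2 scale and 2.44 without CM replicate 3). Eno2, known as the neuronal enolase, was at 12.7 ± 0.223 CPM at day 9 and between 19.75 and 30.5 CPM by group mean elsewhere. Per kilobase, Eno3 made up 78.5% of enolase counts in CM derivatives (78.0%, 73.7% and 83.8% by library) and 7.003% in MEFs, with 39.1% in P3 ieCPCs; undivided by length the shares were 55.0% in CM derivatives, 2.33% in MEFs and 17.3% in P3 ieCPCs. Skeletal muscle markers (10 genes) summed to 23.7 to 32.2 CPM in CM derivatives and at most 7.31 CPM elsewhere. Of that sum, the creatine kinase Ckm, which heart also makes, gave 13.3 ± 2.72 CPM and Tnnt3 11.9 ± 4.60 CPM, while the factors Myod1, Myog and Myf5 had 1, 2 and 1 counts over the 3 CM libraries. The part of skeletal muscle cells in the Eno3 rise was not tested.

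**Figure D4:**
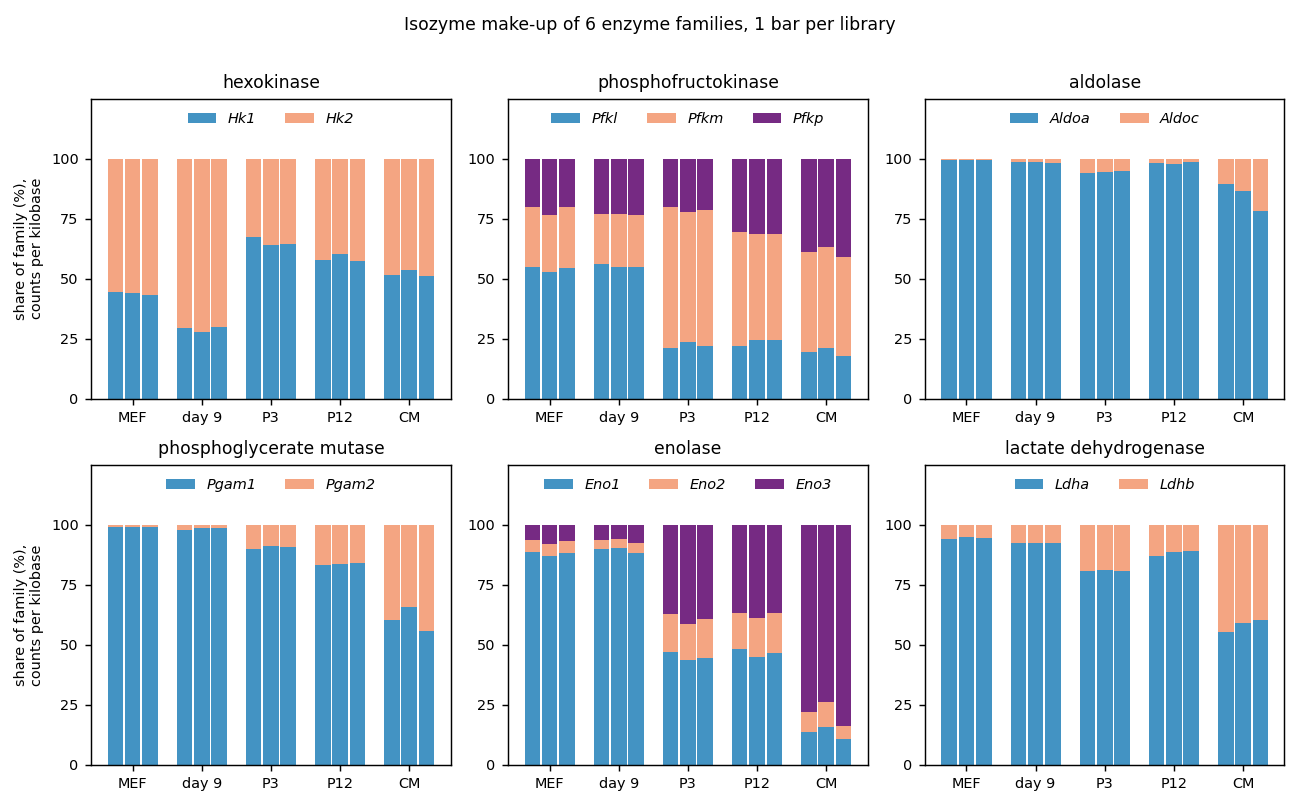
Share of each isozyme in its family's counts per kilobase of gene model (%), 1 stacked bar per library, for 6 enzyme families over the 5 groups. In the enolase panel Eno3 covers 73.7% to 83.8% of the CM bars and 6.17% to 8.03% of the MEF bars, and Pgam2 and Ldhb likewise take their largest shares in CM derivatives.

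Lactate dehydrogenase converts pyruvate and lactate into each other, Ldha favouring lactate formation and Ldhb its use. Ldha (chromosome 7, 54096845 to 54110997) measured 665, 715 and 699 CPM in MEFs, 600.2, 651 and 633 CPM at day 9, 214, 220.2 and 209 CPM in P3 ieCPCs, 264, 257 and 266 CPM in P12 ieCPCs and 331, 301 and 380.2 CPM in CM derivatives. It fell 2.93-fold in P3 ieCPCs relative to day 9 (edgeR, adjusted p = 2.30e-15). Ldhb was low until differentiation. It had 20.7 ± 1.30 CPM in MEFs, 27.1 ± 0.956 CPM at day 9, 26.6 ± 0.632 CPM in P3 ieCPCs and 18.2 ± 1.87 CPM in P12 ieCPCs, but 141, 109 and 132 CPM in CM derivatives, 4.79-fold above P3 ieCPCs (edgeR, adjusted p = 9.99e-17). Ldhb accounted for 41.8% ± 2.56 of the family's counts per kilobase in CM derivatives, against 19.1% in P3 ieCPCs and 5.37% in MEFs (27.4%, 11.0% and 2.90% undivided by length).

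Lactate crosses the membrane through Slc16a1 (MCT1), found in most tissues and in heart, and Slc16a3 (MCT4), the exporter of highly glycolytic cells. Slc16a1 had 31.7, 30.2 and 28.8 CPM in MEFs, 103, 116 and 109 CPM at day 9, 16.1, 18.5 and 15.4 CPM in P3 ieCPCs, 15.3, 18.1 and 16.3 CPM in P12 ieCPCs and 61.3, 60.0 and 65.8 CPM in CM derivatives. It was thus high at day 9 and again in CM derivatives, and its libraries overlapped only between the passages. It rose 3.62-fold at day 9 over MEFs (edgeR, adjusted p = 7.00e-16), fell 6.56-fold in P3 ieCPCs relative to day 9 (edgeR, adjusted p = 8.92e-19) and rose 3.74-fold in CM derivatives over P3 ieCPCs (edgeR, adjusted p = 7.67e-16). Slc16a3 was high in the first 2 groups only. It had 15.5, 12.6 and 14.6 CPM in MEFs and 14.3, 14.6 and 13.3 CPM at day 9. In P3 ieCPCs it had 1.64, 2.03 and 2.26 CPM, a 7.08-fold fall relative to day 9 (edgeR, adjusted p = 9.28e-15). P12 ieCPCs had 3.38, 3.73 and 3.22 CPM and CM derivatives 2.35, 2.36 and 1.84 CPM, so Slc16a3 stayed 6.49-fold below the MEF level in CM derivatives (edgeR, adjusted p = 4.97e-14). Its exons share 831 bases, 15.6% of its length, with Csnk1d on the other strand, which had 38447 counts over the 15 libraries compared with 2896 for Slc16a3, so its low levels are uncertain. Embigin (Emb), a membrane partner of MCT1 from the list of other carriers, had 212 ± 7.21 CPM at day 9 against 25.6 ± 1.18 CPM in MEFs, 14.6 ± 1.47 CPM in P3 ieCPCs, and 57.5 ± 4.60 CPM in CM derivatives (edgeR, adjusted p = 5.05e-20 at day 9).

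The sequences just before the starts of 5 members, chosen after their values were seen, are printed to show the letters ACGTG where present and where not. Each is 250 bases before a RefSeq start on GRCm38.p6, read 5′ to 3′ on the gene's strand. Capitals mark ACGTG on either strand, a form of the core known for HIF-1 and, as CACGTG, the motif known for Myc. Other forms of the HIF-1 core were not searched, so a stretch without capitals may still hold one. The first 3 genes, Ldha, Pgk1 and Slc16a3, fell in P3 ieCPCs relative to day 9, and the last 2, Pgam2 and Eno3, rose.
Ldha (chr7:46845554-46845803, plus strand): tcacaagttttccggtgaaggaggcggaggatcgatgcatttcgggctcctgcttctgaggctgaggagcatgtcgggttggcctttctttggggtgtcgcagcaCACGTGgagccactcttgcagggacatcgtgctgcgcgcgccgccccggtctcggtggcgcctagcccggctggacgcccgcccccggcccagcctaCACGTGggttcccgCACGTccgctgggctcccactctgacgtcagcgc
Pgk1 (chrX:106186850-106187099, plus strand): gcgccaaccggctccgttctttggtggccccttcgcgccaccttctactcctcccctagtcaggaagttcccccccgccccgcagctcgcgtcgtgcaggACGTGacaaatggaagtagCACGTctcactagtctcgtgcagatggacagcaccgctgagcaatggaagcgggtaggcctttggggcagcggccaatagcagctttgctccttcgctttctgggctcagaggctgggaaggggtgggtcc
Slc16a3 (chr11:120948817-120949066, plus strand): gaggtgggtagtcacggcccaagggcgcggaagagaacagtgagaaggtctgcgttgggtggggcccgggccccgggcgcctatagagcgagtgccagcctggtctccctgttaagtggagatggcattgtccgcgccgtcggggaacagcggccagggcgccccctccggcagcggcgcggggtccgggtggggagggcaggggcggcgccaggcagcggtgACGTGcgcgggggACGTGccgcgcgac
Pgam2 (chr11:5803797-5804046, minus strand): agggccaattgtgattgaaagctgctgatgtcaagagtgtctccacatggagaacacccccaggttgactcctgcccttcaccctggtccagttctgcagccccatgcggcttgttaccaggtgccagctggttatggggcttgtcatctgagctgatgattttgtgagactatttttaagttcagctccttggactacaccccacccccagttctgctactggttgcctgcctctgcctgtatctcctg
Eno3 (chr11:70656926-70657175, plus strand): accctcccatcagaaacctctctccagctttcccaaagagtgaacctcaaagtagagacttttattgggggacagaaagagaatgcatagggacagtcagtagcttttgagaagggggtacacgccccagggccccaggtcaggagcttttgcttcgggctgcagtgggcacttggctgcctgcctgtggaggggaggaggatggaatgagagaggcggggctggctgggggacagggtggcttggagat
The Ldha stretch holds 5 matches, since each of its 2 CACGTG is read on both strands, those of Pgk1 and Slc16a3 hold 2 each, and those of Pgam2 and Eno3 hold 0. Ldha has a second RefSeq start, whose 250 bases (chr7:46846832-46847081, plus strand) hold 0 matches. Of the 29 members with a RefSeq start in the table used (not Slc2a3 and Slc2a4), 13 held ACGTG before at least 1 start, 44.8%, beside 18.5% of all genes. CACGTG stood in 6 of 29 (20.7%, beside 6.86% of all genes) and GGGCGG, a GC-rich motif, in 18 of 29 (62.1%, beside 35.4%). Genes with more starts have more chances to hold a match. Counted by start, ACGTG stood before 36.2% of the 47 member starts and 16.6% of all starts. By the same count CACGTG stood before 12.8% and 6.02%, and GGGCGG before 44.7% and 32.7%. The members' stretches are also richer in G and C, 58.8% at the median against 52.4% for all. By direction in P3 ieCPCs against day 9, ACGTG stood in 9 of the 17 members that fell and in 3 of the 8 that rose. The printed genes therefore do not stand for the rest. Eno1, Pfkl, Gapdh, Tpi1, Gpi1, Pdk1, Pdk4 and Pfkp fell there with 0 matches before any start. Pfkfb2, Pfkm and Pdk2 rose there with matches before at least 1 start. A match describes letters only, and binding was not measured.

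Pyruvate dehydrogenase kinases switch off the mitochondrial enzyme complex that starts the oxidation of pyruvate. Pdk4 is the form induced by fasting and fatty acids in heart and muscle, Pdk1 is a known HIF-1 target, and Pdk2 is found in most tissues. Pdk4 (chromosome 6, 5433351 to 5446309) had 2.96, 3.60 and 4.21 CPM in MEFs, 17.4, 18.4 and 17.3 CPM at day 9, 4.34, 5.31 and 5.23 CPM in P3 ieCPCs, 3.73, 3.55 and 2.91 CPM in P12 ieCPCs, and 56.7, 65.3 and 55.8 CPM in CM derivatives. Day 9 and CM libraries stood above all others. Pdk4 rose 4.90-fold at day 9 over MEFs (edgeR, adjusted p = 9.06e-14) and 11.9-fold in CM derivatives over P3 ieCPCs, a log2 fold change of 3.58 ± 0.11 (edgeR, adjusted p = 2.74e-18), the largest of any member in that comparison. Pdk1 measured 33.8, 30.05 and 40.7 CPM in CM derivatives, against 10.9, 10.9 and 12.4 CPM in P3 ieCPCs, a 3.05-fold rise, and 32.5 ± 1.20 CPM in MEFs. Pdk2 had 47.4, 36.4 and 47.5 CPM in CM derivatives and 8.204 to 10.49 CPM by group mean in the rest, rising 4.16-fold over P3 ieCPCs (edgeR, adjusted p = 2.99e-14). Its 1.21-fold fall at day 9 was lost without MEF replicate 2 or 3 or without day 9 replicate 1 or 3. Pdk3, by contrast, ranged from 24.2 to 34.5 CPM by group mean and was lowest in CM derivatives. Per kilobase Pdk4 gave 37.9% and Pdk2 30.9% of the family's counts in CM derivatives, and Pdk3 gave 21.1% ± 1.74 in CM derivatives against 61.8% ± 1.53 in MEFs. Undivided by length, Pdk4 gave 36.7%, Pdk2 26.95% and Pdk3 14.9% in CM derivatives. In MEFs the undivided shares of Pdk3 and Pdk1 were 42.8% and 40.4%.

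Levels per kilobase put Gapdh first in all groups, at 371 CPM per kilobase in CM derivatives and 742 in MEFs. After it in CM derivatives came Ldha (113), Aldoa (82.7), Ldhb (81.1), Pgam1 (74.5) and Eno3 (64.9), with SDs of 13.4, 10.9, 10.3, 0.344 and 16.3 (n = 3), so the last 4 overlap within their spread. In MEFs the next were Ldha (232), Pgam1 (207), Pgk1 (166) and Aldoa (146). Undivided by length the order in MEFs differed. Ldha (693 ± 25.5 CPM) was followed by Eno1 (406 ± 14.7), Aldoa (402 ± 18.5), Pgam1 (378 ± 17.3) and Pgk1 (372 ± 1.9). Per kilobase of gene model Eno1 had 75.4 CPM in MEFs.

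Other genes of the same metabolism were read from lists, whose counts here and below stand beside these shares of all tested genes. At day 9 against MEFs, 29.7% rose and 27.4% fell, and in P3 ieCPCs against day 9, 28.4% rose and 32.3% fell. In P12 against P3 ieCPCs, 17.3% rose and 19.5% fell, and in CM derivatives against P3 ieCPCs, 31.9% rose and 31.2% fell. Library-total scaling would lower every log2 fold change in that last comparison by 0.998. Of 18 further glycolytic enzymes, 15 were tested: 3 rose and 8 fell at day 9 against MEFs, 3 rose and 6 fell in P3 ieCPCs against day 9, 5 rose and 1 fell in P12 against P3, and 4 rose and 4 fell in CM derivatives against P3. Pkm, the pyruvate kinase that closes the pathway, had 101 ± 3.97 CPM in P3 ieCPCs against 416 ± 12.7 CPM at day 9 (a log2 fold change of -2.04, edgeR, adjusted p = 8.13e-19), and 138 ± 6.99 CPM in CM derivatives against 460.2 ± 20.9 CPM in MEFs. Hkdc1, a hexokinase-like gene, had 232 counts over the day 9 libraries and 1 count over the MEF libraries. The hexokinase of white blood cells, Hk3, fell at day 9 by 3.49 on the log2 scale, where macrophage and blood markers (8 genes) summed to 8.31 to 9.71 CPM against 299 to 311 CPM in MEFs, with C1qa and C1qb at 0. These markers came to 159.8 to 213 CPM in CM derivatives against 39.5 to 40.8 CPM in P3 ieCPCs, and their part in any change was not tested.

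Of 15 further carriers and their partners, 13 were tested: 5 rose and 2 fell at day 9, 4 rose and 4 fell in P3 ieCPCs, 6 rose and 4 fell in P12, and 6 rose and 1 fell in CM derivatives against P3. Slc16a7 (MCT2), a high-affinity lactate and pyruvate carrier, was higher in CM derivatives than in MEFs by 2.05 on the log2 scale, and Txnip, an inhibitor of glucose uptake, had 102, 99.3 and 162 CPM in CM derivatives against 64.7, 61.8 and 60.7 CPM in P3 ieCPCs. Of 11 genes for pyruvate entry into mitochondria and its use there, 1 rose and 7 fell at day 9. In P3 ieCPCs 2 rose and 3 fell, and in P12 3 rose and 2 fell. In CM derivatives against P3, 10 rose and 0 fell, beside 31.9% of all genes higher. The list median in that comparison was 0.82 on the log2 scale, below the 0.998 by which library-total scaling would lower it. Pdha1 and Dlat, subunits of the pyruvate dehydrogenase complex, rose there to 121 ± 12.0 and 142 ± 17.8 CPM against 50.7 ± 2.02 and 49.99 ± 1.98 CPM in P3 ieCPCs, and the pyruvate carrier Mpc1 rose to 18.5 ± 1.74 CPM against 8.07 ± 0.543 CPM.

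Of the pentose phosphate pathway, the branch that makes NADPH and ribose, 2 of 7 genes rose and 3 fell at day 9, 0 rose and 5 fell in P3 ieCPCs, 3 rose and 0 fell in P12, and 4 rose and 2 fell in CM derivatives against P3. Its entry enzyme G6pdx measured 82.8 ± 2.43 CPM in P12 against 38.7 ± 0.317 CPM in P3 ieCPCs (edgeR, adjusted p = 6.17e-14). Of 6 genes that oppose glycolysis only Pck2 and Tigar were tested: 0 rose and 1 fell at day 9, 0 rose and 2 fell in P3 ieCPCs, 1 rose and 0 fell in P12, and 2 rose and 0 fell in CM derivatives against P3.

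Of 19 hypoxia-response genes outside glycolysis, 2 rose and 12 fell at day 9, 1 rose and 13 fell in P3 ieCPCs, 6 rose and 5 fell in P12, and 14 rose and 2 fell in CM derivatives against P3, with a list median of 0.95 on the log2 scale in the last. That median is below the 0.998 by which library-total scaling would lower it. Against MEFs, 6 of the list were higher in CM derivatives and 10 lower, beside 35.9% and 34.7% of all genes, with a median of -0.25. Adm, which encodes the vasodilator peptide adrenomedullin, had 38.2, 39.8 and 25.2 CPM in CM derivatives against 0.498, 0.552 and 0.424 CPM in P3 ieCPCs, and 9.35 ± 0.367 CPM at day 9. Epas1, which encodes HIF-2 alpha, had 360.2, 491 and 358 CPM in CM derivatives against 15.7 ± 1.20 CPM in P3 ieCPCs (edgeR, adjusted p = 1.47e-20). The mitophagy gene Bnip3 measured 29.4 ± 1.74 CPM in CM derivatives and 12.4 ± 1.38 CPM in P3 ieCPCs, against 67.2 ± 2.85 CPM in MEFs. Of 14 targets of the fatty acid sensors PPAR, 12 were tested: 0 rose and 11 fell at day 9, 8 rose and 2 fell in P3 ieCPCs, 1 rose and 3 fell in P12, and 10 rose and 1 fell in CM derivatives against P3. Pdk4, itself a known PPAR target, rose at day 9. In CM derivatives the fatty acid carrier Cd36 reached 76.4, 48.9 and 90.8 CPM against 1.60, 1.90 and 1.70 CPM in P3 ieCPCs (edgeR, adjusted p = 1.61e-16), beside the Pdk4 rise. Oxygen, glucose, lactate and flux through the pathway were not measured, and protein levels cannot be read from these counts.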

How the data were processed

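Bulk RNA of 15 libraries was sequenced on a GAIIx. Reads were aligned with TopHat2 2.0.13 and counted per gene with featureCounts of Subread on mm9, per the submitters' processing notes, and the strand setting is not given in the sources used here. The deposited table holds whole-number counts of 37991 genes, which the authors did not normalise. The deposited CPM columns cover 17925 genes and were used for no test. Columns headed FPKM, per the file headers, did not equal CPM over gene length in 14 of the 15 libraries and were not used. Gene lengths are those of the deposited table.

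Counts were scaled by TMM, filtered with filterByExpr and fitted in 1 edgeR quasi-likelihood model (edgeR 4.0.16, R 4.3.3) with group means for all 15 libraries; p-values were adjusted by Benjamini-Hochberg within each of 7 comparisons, over 17999 genes, and called under 0.05. On simulated counts 83.6% to 98.5% of 2-fold changes and 68.7% to 82.1% of 1.5-fold changes were recovered, with 10 to 16 false calls a comparison. Only 200 genes changed in each simulation, on group means otherwise equal. That is far fewer than were called in the data, so the dependence on scaling was not simulated. Isozyme shares and levels per kilobase divide counts by the deposited gene length, which may differ from the length of the transcripts present. Alternatives were RLE scaling, mitochondrial genes left out, no filter, DESeq2 1.42.0, limma 3.58.1 voom, only the 6 compared libraries, a replicate block and each library left out. The members, the other pathway lists and the marker lists were chosen with earlier results of these data known. Of each other pathway list, the genes named were among the 4 called with the largest absolute log2 fold change and at least 1 CPM in some comparison.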

Additional observations from a re-analysis of the deposited data

How the results depend on the processing

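Scaling to library totals, worked out as a shift of the fold changes and not refitted, turned the sign of 9 of 27 called members in CM derivatives against P3 ieCPCs, 7 of 30 against P12 ieCPCs and 3 of 29 against MEFs, and of Pdk2 at day 9 and Pdk3 in P3 ieCPCs, both against MEFs. Under the alternatives that were refitted, 0 members had a call of the opposite sign. Of 217 member-by-comparison results 29 gained or lost a call under at least 1 setting, 20 of them under a setting other than leaving out a library. Members called lower in CM derivatives against P3 ieCPCs were 4, and 2 with only the 6 compared libraries; leaving out 1 library gave 2 to 3. Leaving out 1 library gave 1 to 2 members higher by more than 2-fold in P12 against P3 ieCPCs (2 with all), and 0 to 2 lower by more than 2-fold in CM derivatives against P12 ieCPCs (1 with all). Same-numbered replicates shared little deviation (correlations from -0.141 to 0.167 over 8566 genes). That gave no clear sign that the numbers pair the samples, but weak correlations cannot exclude pairing. With a replicate block, Pdk2 at day 9 against MEFs lost its call (adjusted p = 0.0507), and Pfkfb1 (0.0379) and Eno3 (0.0432) gained one in P12 against P3 ieCPCs. The block changed no count of members by over 1.5 times.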
